A study of Mus musculus with 29 samples.

Results

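Krt7, Krt8, Krt18, Krt19, Krt20 and Krt23 are keratins of simple epithelium and of the luminal layers of the urothelium, and their transcript levels were followed through RNA-seq of mouse bladder. They were chosen by symbol, 6 of the 35199 genes in each table, and each was compared within a table of values. The first pair of groups was Gfp+ urothelial cells sorted 4 days after the last dose of tamoxifen, without BBN. It held 4 control libraries (genotype wild type in the labels, K5;mTmG in the study's methods). The 5 mutant libraries were K5VP16;Pparg+/- (K5VP16;Pparg;mTmG in the study's methods). The other groups were laser-captured from bladders of mice given the carcinogen BBN, N-butyl-N-(4-hydroxybutyl)-nitrosamine, at 0.05% in the drinking water for 5 months (titles give 4M). They were 3 basal tumors of control mice (wild type in the labels) and, from K5VP16;Pparg+/- mice, 3 luminal tumors, 3 luminal domains (labelled top) and 3 basal-like domains (labelled bottom) of mixed lesions. In the mutants a Pparg1 fused to the VP16 activator sits in Rosa26 behind a stop that Krt5CreERT2 removes, so that the transgene and an EGFP reporter start in Krt5-expressing basal cells of mice aged 8 to 12 weeks at tamoxifen. The tumor mice had drunk BBN for 1 month before tamoxifen. The labels name no animal for any library, so the p-values below measure the spread between these libraries. Libraries are numbered within a group only to name them.

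Keratins form the intermediate filaments of epithelial cells, and each filament needs a type II keratin paired with a type I keratin. Krt7 and Krt8 are type II proteins, and Krt18, Krt19, Krt20 and Krt23 are type I. In the bladder, basal cells are known for Krt5 and Krt14, Krt8 and Krt18 mark the layers above and are strongest in superficial cells, and Krt20 is a classical marker of superficial (umbrella) cells. Pparg is a nuclear receptor that binds DNA with Rxr and takes part in urothelial differentiation, and Fabp4 is one of its known targets.

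The 6 genes lie in the mouse's keratin clusters (GENCODE M21, GRCm38). The type I genes Krt20 (chr11:99428403-99438150), Krt23 (chr11:99477974-99493137) and Krt19 (chr11:100140810-100148665) are on the minus strand of chromosome 11, and the starts of Krt20 and Krt23 are 55.0 kb apart. Krt7 (chr15:101411043-101430313, plus strand) lies in the type II cluster of chromosome 15. Krt8 (chr15:101996698-102004482, minus strand) and Krt18 (chr15:102028180-102032027, plus strand) are head to head on chromosome 15 with 23.7 kb between their starts, so that Krt18 is the type I gene placed beside its own type II partner.

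Promoter sequence is shown for Krt20, the keratin that passed the test in the sorted cells, and for the head-to-head partners Krt8 and Krt18. The windows are RefSeq's 250 bases before the gene start (GRCm38.p6). The window of Krt20 is whole, and those of Krt8 and Krt18 were ended where the GENCODE gene model begins. They cover chr11:99438154-99438403 for Krt20 (minus strand), chr15:102004483-102004592 for Krt8 (minus strand) and chr15:102027966-102028179 for Krt18 (plus strand), and run 5′ to 3′ along the gene's own strand. Capitals mark TATAAA, the TATA box core, and AGGTCA, the hexamer read by nuclear receptors.
Krt20: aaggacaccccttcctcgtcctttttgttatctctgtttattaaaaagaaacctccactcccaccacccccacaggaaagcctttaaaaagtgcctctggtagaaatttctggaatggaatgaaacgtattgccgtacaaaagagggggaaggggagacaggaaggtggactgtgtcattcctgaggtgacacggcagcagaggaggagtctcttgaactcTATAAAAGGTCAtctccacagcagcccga
Krt8: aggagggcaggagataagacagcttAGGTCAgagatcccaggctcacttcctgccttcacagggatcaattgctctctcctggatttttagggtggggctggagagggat
Krt18: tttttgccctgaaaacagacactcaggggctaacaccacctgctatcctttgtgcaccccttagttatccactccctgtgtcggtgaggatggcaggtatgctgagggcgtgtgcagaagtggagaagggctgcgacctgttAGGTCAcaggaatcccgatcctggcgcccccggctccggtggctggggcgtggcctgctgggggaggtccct

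Of the 6 genes, 5 had a promoter in the RefSeq table and Krt19 is named only. Over the whole 250 bases and both strands, AGGTCA was found in Krt20, Krt8 and Krt18 and in 14.0% of the 32851 promoters. In Krt20 the hexamer lay 23 to 18 bases before the start, directly after a TATAAA at 29 to 24 bases, and TATAAA occurred in 12.4% of promoters and in no other of the 5. The tandem form, AGGTCA repeated after 1 free base, which contains AGGTCA and is the form bound by Pparg with Rxr, was in none of the 5 and in 0.0335% of promoters. GGGCGG, the letters of a GC box, occurred 4 times in Krt7, in none of the other 4, and in 32.7% of promoters. These are letter matches in a short window and no measure of binding.

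The deposited values are normalized counts, with each table normalized on its own. Total normalized counts, in units of 1000000, were 36.5 to 41.4 per library for the sorted cells and 41.7 to 53.9 for the captured tissue, and all 6 keratins passed the filter of 10 normalized counts in every comparison. A row for Krt8-ps, a processed pseudogene on chromosome 7 that resembles Krt8, held at most 0.135% of the Krt8 value in any library, so little of the Krt8 signal was assigned there. The sorted libraries expressed basal markers, with summed normalized counts of 147066 to 188323 in the controls and 120224 to 143942 in the mutants for Krt5, Krt14, Trp63, Col17a1, Itga6 and Cd44. Krt5 carried most of that sum, and the 6 genes were split, with 3 log2 fold changes above 0 and 3 below (median 0.11). Cd44, an adhesion receptor of basal cells, rose (0.76 ± 0.11, limma adjusted p = 0.0116), and Col17a1, a hemidesmosomal collagen, fell (-1.34 ± 0.27, adjusted p = 0.0315). Superficial markers (5 uroplakins and Krt20) summed to 152447 to 327560 in the controls and 205147 to 350478 in the mutants, above the basal sum in 3 of 4 controls and 5 of 5 mutants, so the libraries hold RNA of both kinds. The transgene's activity was read from Fabp4, which was at 207 to 467 in the controls and 4969 to 30598 in the mutants. Its log2 fold change was 4.64 ± 0.49 (SE, limma adjusted p = 0.00171). Pparg counts do not separate the transgene from the endogenous gene. They were at 9381 to 9999 in the controls and 6111 to 9032 in the mutants.

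Other RNA also differed between the sorted groups. Fibroblast markers (6 of 6 with a log2 fold change above 0, Lum past the test) summed to 11651 to 84707 in the controls and 30652 to 217371 in the mutants, and mesothelial markers (4 of 4 above 0, none past the test) to 1290 to 22758 and 5805 to 31757. Smooth muscle markers (6 of 6 above 0, none past the test) summed to 174 to 1042 and 410 to 2719. Exocrine pancreas transcripts (7 of 7 below 0, none past the test) were at 230 to 475 and 3.77 to 123, and the endothelial Cdh5 and the intestinal Cdx2 were at 0 in all 4 controls. Y-linked transcripts stood at 9030 to 9177 in control libraries 2 to 4, and at 404 in control library 1, beside 338 to 395 in the mutants. Only control library 1 shared the Y-linked level of the mutants, so this level and the genotype can hardly be told apart. A fit with a term for Y-linked transcripts is given below. The part of the other differences in the keratin results was not tested. In such mixed RNA, fewer cells of a type and less RNA per cell cannot be told apart.

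The first comparison asked how these keratins stood 4 days after the last of 3 tamoxifen doses, given over 1 week, had activated the Pparg transgene in basal cells. Krt20, of which superficial cells carry most, rose. Krt7, Krt8, Krt18, Krt19 and Krt23 had higher means in the mutants but did not pass the test. Krt20 normalized counts were 506, 1319, 557 and 852 in control libraries 1 to 4, and 5177, 2981, 2542, 1187 and 2867 in mutant libraries 1 to 5. Of the 5 mutants, 4 lay above every control, and mutant library 4 lay below control library 2, so the groups overlapped. The log2 fold change of Krt20 was 1.83 ± 0.40 (SE, 3.54-fold, limma adjusted p = 0.0444), one of 467 genes called among 16413 tested (2.85%). The adjusted p was above 0.05 in 8 of 9 fits that left out 1 library, in the range 0.0565 to 0.135, and at 0.0172 without mutant library 4. With a term for Y-linked transcripts, which compares the mutants with control library 1, the log2 fold change was 2.39 (adjusted p = 0.326).

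Krt8, the type II keratin of simple epithelium, was at 44684, 42181, 29264 and 31473 in the controls. In mutant libraries 1 to 5 it was at 141541, 66983, 57027, 39566 and 53222. All mutants but library 4 lay above every control, and library 1 stood well above the rest. The log2 fold change was 0.84 ± 0.33 (1.78-fold, adjusted p = 0.184), and 0.55 without that library.

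Krt18, the type I partner of Krt8, was at 53634, 70859, 48830 and 53012 in the controls. The mutant values were 143332, 81165, 63127, 46952 and 63624. Only mutant libraries 1 and 2 exceeded the highest control, and the log2 fold change was 0.40 ± 0.29 (adjusted p = 0.472). Without mutant library 1 it was 0.16, with array weights 0.17 and with quantile scaling 0.20.

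Krt7 and Krt19 are keratins of simple ducts that are also made throughout the urothelium. Krt7 was at 166518, 179524, 133174 and 158849 in the controls and at 325321, 255903, 181199, 145441 and 178747 in the mutants. Krt19 was at 97781, 95995, 73198 and 77398 in the controls and at 154866, 129501, 99837, 82656 and 97650 in the mutants. For both, mutant libraries 1 to 3 lay above every control and libraries 4 and 5 within the control range. Their log2 fold changes were 0.39 ± 0.26 (adjusted p = 0.422) and 0.37 ± 0.21 (adjusted p = 0.352), with 95% confidence intervals of -0.18 to 0.97 and -0.10 to 0.83. Without mutant library 1 the values were 0.23 and 0.24. With quantile scaling they were 0.13 and 0.20, and with array weights 0.22 and 0.24.

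Krt23, a type I keratin best known from stressed or transformed epithelium, was at 722, 790, 851 and 890 in the controls. The mutants held 1864, 2086, 1026, 620 and 875. Both the highest and the lowest of the 9 values were mutants, and the log2 fold change was 0.53 ± 0.33 (adjusted p = 0.399). Without mutant library 2 it was 0.32, and with array weights 0.25. The 6 keratins thus had a log2 fold change above 0, as did 50.5% of all genes tested, with a median of 0.46 beside 0.00455 over all genes. No keratin separated the groups, as 4.67% of genes did with the mutants higher.

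**Figure D1:**
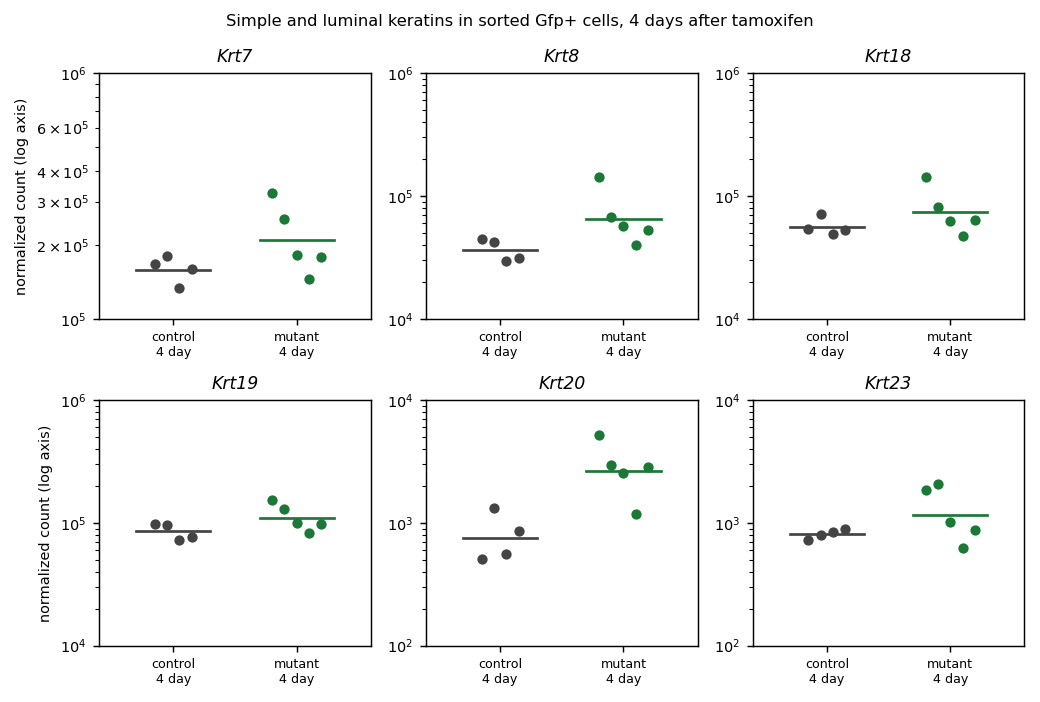
Normalized counts (log axis) of the 6 keratins in 4 control and 5 mutant libraries of sorted Gfp+ cells, 4 days after tamoxifen, each point a library in numbered order from left to right and each line the mean on the log2 scale. Mutant library 1 is the highest of the 9 for Krt7, Krt8, Krt18, Krt19 and Krt20, and mutant library 4 lies inside the control range for Krt7, Krt8, Krt19 and Krt20.

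None of 9 tested keratins of basal and squamous epithelium passed at this time, with 3 log2 fold changes above 0 and 6 below (median -0.13). Krt15, a basal type I keratin whose gene is a neighbour of Krt19, was the one that separated the groups, at 159737 to 188926 in the controls and 63151 to 152875 in the mutants (log2 fold change -0.90 ± 0.27, adjusted p = 0.103), as 4.51% of genes did with the mutants lower. Krt15 and the keratins of the next sentences fall outside the naming rule and were chosen after their values were seen. Krt5 was at 91106 to 109572 and 62918 to 93817. Krt14, the basal partner of Krt5, had the opposite sign, at 388 to 747 in the controls and 11162, 3883, 682, 1658 and 616 in mutant libraries 1 to 5 (log2 fold change 1.89 ± 0.77, adjusted p = 0.197). The other 2 above 0 were Krt13 (1.52 ± 0.37, adjusted p = 0.0594) and Krt6a (1.89, adjusted p = 0.400). Of 10 proteins that tie keratin filaments to desmosomes and hemidesmosomes, none passed (7 above 0, median 0.14). Among 12 superficial differentiation genes 1 passed, Fabp4, and 9 were above 0 (median 0.22).

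The simple keratins held a larger share of keratin signal in the mutants. Over all 54 keratin genes of the table, the 6 held 55.1%, 59.2%, 50.6% and 51.4% of keratin normalized counts in control libraries 1 to 4. In mutant libraries 1 to 5 they held 82.1%, 69.5%, 75.1%, 63.0% and 60.6%. Every mutant share was above every control share, while all keratins together made up 1.55% to 1.79% of a control library and 1.35% to 2.30% of a mutant library. The members' share is a description of the chosen genes and was not tested.

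The partners Krt8 and Krt18 were not at one ratio in the controls. Per kilobase of transcript, the log2 ratio of the Krt8 level to the Krt18 level was -0.71 in control library 1 and -1.19, -1.19 and -1.20 in libraries 2 to 4. The mutants lay at -0.46, -0.72, -0.59, -0.69 and -0.70. Control library 1, the control with the low Y-linked sum, therefore sat with the mutants, apart from the other 3 controls, which nearly coincided. The part of the Y-linked difference in this ratio was not tested.

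The second comparison set luminal tumors of mutants against basal tumors of control mice. The simple keratins separated the tumor types: for each of the 6, all 3 luminal tumors were above all 3 basal tumors, a pattern seen in 9.98% of the 15357 genes tested. Krt8 and Krt19 rose, among 338 genes called (2.2%), and the others did not pass the test. Fibroblast markers summed to 44454 to 66575 in the basal and 212 to 17130 in the luminal tumors (6 of 6 lower, Col1a1 and Col1a2 past the test), and smooth muscle markers to 6010 to 51207 and 150 to 1254 (6 of 6 lower, 3 past the test, with Des at 0 in the luminal tumors). Leukocyte markers summed to 3213 to 11390 and 579 to 2096 (7 of 8 tested lower, none past the test). Endothelial markers summed to 1745 to 3718 and 374 to 1831 (5 of 5 lower, none past the test). Mesothelial markers summed to 394 to 15257 and 67.4 to 385 (2 of 2 tested lower, none past the test). The part of these in the keratin differences was not tested.

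Krt8 was at 16356, 8994 and 9144 in the basal tumors and at 76853, 159522 and 66249 in the luminal tumors. The lowest luminal tumor was thus several times the highest basal tumor, and the log2 fold change was 3.08 ± 0.41 (8.45-fold, adjusted p = 0.0184). Without basal tumor library 1, luminal tumor library 1 or luminal tumor library 2 the adjusted p was 0.0503, 0.0879 and 0.0814. It stayed under 0.05 in the other 5 of 8 fits without 1 library.

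Krt19 was at 14463, 39525 and 34838 in the basal tumors and at 239994, 94837 and 176652 in the luminal tumors. Its log2 fold change was 2.55 ± 0.52 (5.87-fold, adjusted p = 0.0428), and in each of the 8 fits without 1 library the adjusted p lay between 0.0530 and 0.138.

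Krt18 followed Krt8 in rank of groups but with a wide spread. The basal tumors held 3562, 11335 and 11491, and the luminal tumors 29234, 268684 and 57143. Luminal tumor library 2 was far above the other two, and the log2 fold change was 3.31 ± 0.78 (adjusted p = 0.0646). Krt7 was at 11896, 78463 and 28970 against 104489, 162741 and 112512, with a log2 fold change of 2.05 ± 0.61 (adjusted p = 0.122). Over fits without 1 library Krt7 ran from 1.38 without basal tumor library 1 to 2.74 without basal tumor library 2, where it passed (adjusted p = 0.0415).

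The 2 less abundant keratins had the widest ranges on the log scale among the basal tumors, while among the luminal tumors Krt18 had the widest. Krt20 was at 4.24, 265.8 and 306.5 in the basal tumors and at 930.4, 5684 and 1375 in the luminal tumors. Krt23 was at 18.6, 272.0 and 1736 in the basal tumors and at 3373, 17610 and 4105 in the luminal tumors. Basal tumor library 1 was lowest for both, and luminal tumor library 2 highest. The log2 fold changes were 4.68 ± 1.46 for Krt20 (adjusted p = 0.135) and 4.89 ± 1.39 for Krt23 (adjusted p = 0.110). Leaving out basal tumor library 1 gave 2.76 and 3.18.

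The luminal tumors and luminal domains of this table were also fitted together, a grouping used in the study. With 5 luminal libraries against 3 basal tumors, 513 of the 15357 genes tested were called. Among them were Krt7, Krt8, Krt18, Krt19 and Krt23. The log2 fold changes were 2.35 for Krt7 (adjusted p = 0.0489), 3.59 for Krt18 (adjusted p = 0.0220) and 5.27 for Krt23 (adjusted p = 0.0425). Krt20 remained outside the call at an adjusted p of 0.0726. The median log2 fold change of all genes tested was -0.11 in the main fit and -0.32 to 0.02 over the alternatives, small beside the keratin values.

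**Figure D2:**
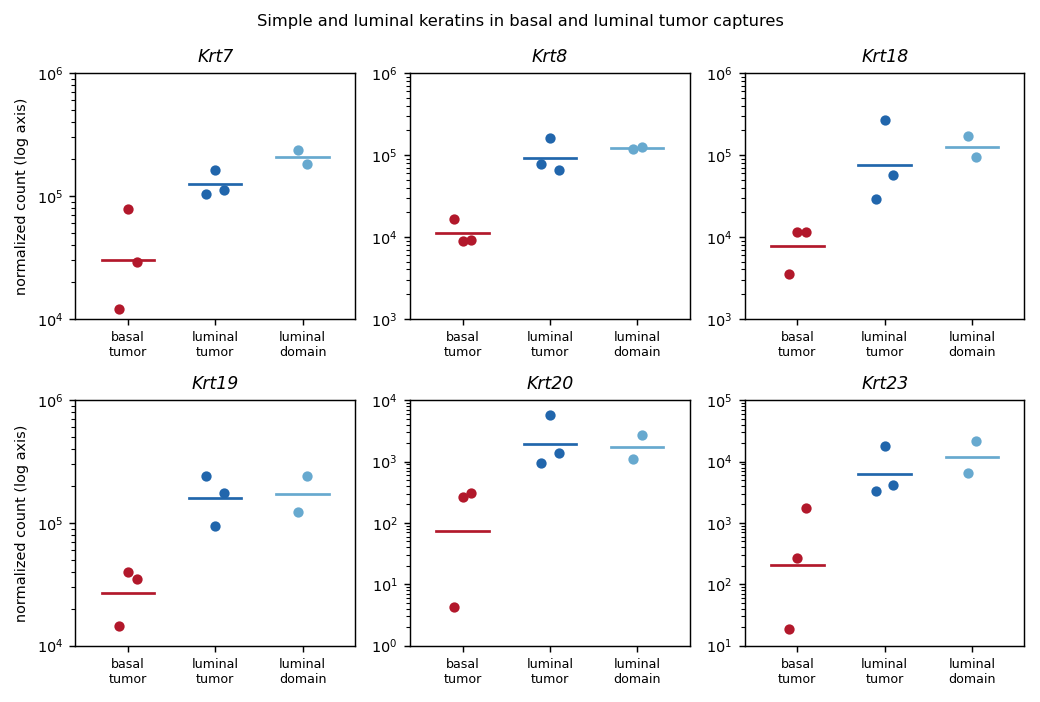
Normalized counts (log axis) of the 6 keratins in 3 basal tumors, 3 luminal tumors and 2 luminal domains of 1 table, each point a library and each line the mean on the log2 scale. In each panel the basal tumors lie below all luminal libraries, with Krt20 at 4.24 in basal tumor library 1.

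Keratins of basal and squamous cells went the other way in part. Krt17, a type I keratin of activated and squamous epithelium, fell from 35296, 16184 and 184350 in the basal tumors to 164, 69.7 and 868 in the luminal tumors (log2 fold change -7.77 ± 1.08, adjusted p = 0.0194). It was the only one of 11 such keratins past the test, and 4 of the 11 had values above 0 (median -1.41). Of the 12 superficial differentiation genes 7 rose and all 12 were above 0 (median 6.76). By adjusted p they were led by Pparg itself (log2 fold change 6.74 ± 0.80) and Snx31, a sorting nexin that handles uroplakins (9.80 ± 1.29). The uroplakins Upk3b (9.37 ± 1.33) and Upk2 (8.70 ± 1.24) followed, with adjusted p in that order of 0.0135, 0.0184, 0.0199 and 0.0199. Pparg counts do not separate the endogenous gene from the transgene, which the mice with basal tumors lacked. Among the 10 linker proteins Pkp1, a desmosomal plakophilin, fell (-2.14 ± 0.46, adjusted p = 0.0491), and 4 were above 0 (median -0.30).

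The 6 keratins held 10.1%, 19.6% and 6.42% of keratin normalized counts in basal tumors 1 to 3. In luminal tumors 1 to 3 they held 49.4%, 90.9% and 35.9%. Luminal tumor library 2, in which nearly all keratin signal was of the simple type, had Krt5 at 4731 beside 43414 and 91588 in the other luminal tumors. All keratins together were 1.07% to 3.02% of a basal library and 1.49% to 2.28% of a luminal library.

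The third comparison set the luminal domains of mixed lesions against the same 3 basal tumors, in a table of its own. Again the 3 luminal domains lay above the 3 basal tumors for all 6 keratins, as for 14% of the 14921 genes tested, and Krt19 was the keratin that passed among 377 genes called (2.53%). Krt19 was at 15333, 41086 and 36519 in the basal tumors on this table's scale and at 131894, 262861 and 163594 in luminal domains 1 to 3. The log2 fold change was 2.65 ± 0.47 (6.27-fold, adjusted p = 0.0351). Leaving out any library but basal tumor library 2 gave an adjusted p of 0.0650 to 0.138.

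Krt7 was uniformly high in the domains, at 254785, 197503 and 204849 beside 12528, 81018 and 30165 in the basal tumors. Its log2 fold change was 2.80 ± 0.62 (adjusted p = 0.0637), and it passed without basal tumor library 2 (3.48, adjusted p = 0.0200). Krt8 and Krt18 were high in domains 1 and 2 and lower in domain 3. Krt8 was at 125676, 134289 and 29377 in the domains and 17230, 9289 and 9524 in the basal tumors. The log2 fold change of Krt8 was 2.78 ± 0.59 (adjusted p = 0.0556).

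Krt18 was at 180891, 101583 and 23683 in the domains and at 3748, 11694 and 11954 in the basal tumors, with a log2 fold change of 3.23 ± 0.76 (adjusted p = 0.0744). Krt20 was at 1166, 2983 and 1126 beside 4.47, 274.5 and 319.3, and Krt23 at 7047, 23245 and 2914 beside 19.5, 280.8 and 1806. Their log2 fold changes were 4.33 ± 1.50 (adjusted p = 0.164) and 5.16 ± 1.49 (adjusted p = 0.114). Without basal tumor library 1 that of Krt20 was 2.41, and that of Krt23 fell as low as 3.45 over fits without 1 library. This comparison and the second share the 3 basal tumors and 2 of the domain libraries enter both tables, so the 2 sets of values are not independent.

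Of the basal and squamous keratins Krt17 fell in this comparison too (-5.49 ± 0.91, adjusted p = 0.0316), and 5 of 11 had values above 0 (median -0.62). Of the superficial differentiation genes 5 of 12 rose, and all 12 were above 0 (median 6.29). By adjusted p, from 0.0237 to 0.0258, the first were Upk3b (9.53 ± 1.26), Pparg (6.31 ± 0.86), Snx31 (9.32 ± 1.33) and the epithelial factor Elf3 (2.59 ± 0.39). Here too Pparg counts do not separate the transgene from the endogenous gene. None of 10 linkers passed. Fibroblast markers summed to 45948 to 70263 in the basal tumors and 5011 to 31289 in the domains (6 of 6 lower, none past the test), and smooth muscle markers to 6298 to 57231 and 1430 to 1911 (6 of 6 lower, 3 past the test, with Cnn1 at 0 in the domains). Their part in the keratin values was not tested.

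The fourth comparison asked whether the simple keratins differ between the luminal and the basal-like domains of mixed lesions. All 6 had lower log2 means in the basal-like domains, and none passed the test. With limma 0 of 14874 genes were called (0%), 757 (5.09%) had an unadjusted p under 0.05, and 20 were called without the variance trend. The column names number each basal-like library directly after a luminal one, and libraries paired in this way deviated together from their group means, so each keratin is also given from a fit with the pair as a block, added after the data were seen. That fit called 1 gene and no keratin. The gene was Ctse, the protease cathepsin E (log2 fold change -3.29, adjusted p = 0.0358), which lies outside the naming rule and was named after its values were seen. Krt7 was at 258530, 202982 and 210339 in the luminal domains and at 140490, 170094 and 153409 in the basal-like domains. It was the one keratin whose groups did not overlap, a pattern that 5.14% of genes had in this direction, and its log2 fold change was -0.53 ± 0.29 (0.69-fold, adjusted p = 0.935, 95% confidence interval -1.20 to 0.14). In the paired fit the interval of Krt7 was -0.92 to -0.14 (adjusted p = 0.289).

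Krt8 was at 126924, 137365 and 30022 in the luminal domains and at 55168, 67622 and 13810 in the basal-like domains. Krt18 was at 182043, 103544 and 24118 and at 43170, 53759 and 4499. Library 3 of each kind was the lowest for both partners. The log2 fold changes were -1.11 ± 0.75 and -1.81 ± 1.04, with intervals of -2.84 to 0.61 and -4.21 to 0.58 in the fit without pairs. Krt8 was lower in the basal-like member of each pair by a log2 difference of -1.20, -1.02 and -1.12, and Krt18 by -2.08, -0.95 and -2.42. The paired intervals were -1.40 to -0.83 for Krt8 (adjusted p = 0.117) and -2.46 to -1.17 for Krt18 (adjusted p = 0.143), each below 0 while the adjusted p missed the threshold.

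Krt19 was at 133225, 268929 and 167217 in the luminal domains and at 99664, 149979 and 137090 in the basal-like domains (-0.52 ± 0.36). Krt20 was at 1178, 3051 and 1151 and at 193, 3461 and 579 (-1.14 ± 0.96). Krt23 was at 7100, 23719 and 2971 and at 1920, 14100 and 6350 (-0.51 ± 0.87). The single highest Krt20 value belonged to a basal-like domain. Krt19 was lower in the basal-like member of 3 of 3 pairs (paired interval -0.89 to -0.15, adjusted p = 0.283), and Krt20 and Krt23 in 2 of 3, with paired intervals that include 0 (adjusted p = 0.427 and 0.704). Fits without 1 library and without pairs moved these values widely. Krt8 ran from -1.83 without luminal domain library 3 to -0.40 without basal-like domain library 3, and Krt18 reached -0.67 without the latter. Krt19 reached -0.23 without luminal domain library 2, and Krt20 ran from -2.26 without basal-like domain library 2 to -0.18 without basal-like domain library 1. For Krt23 the sign turned when luminal domain library 2 (0.28) or basal-like domain library 1 (0.25) was left out.

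**Figure D3:**
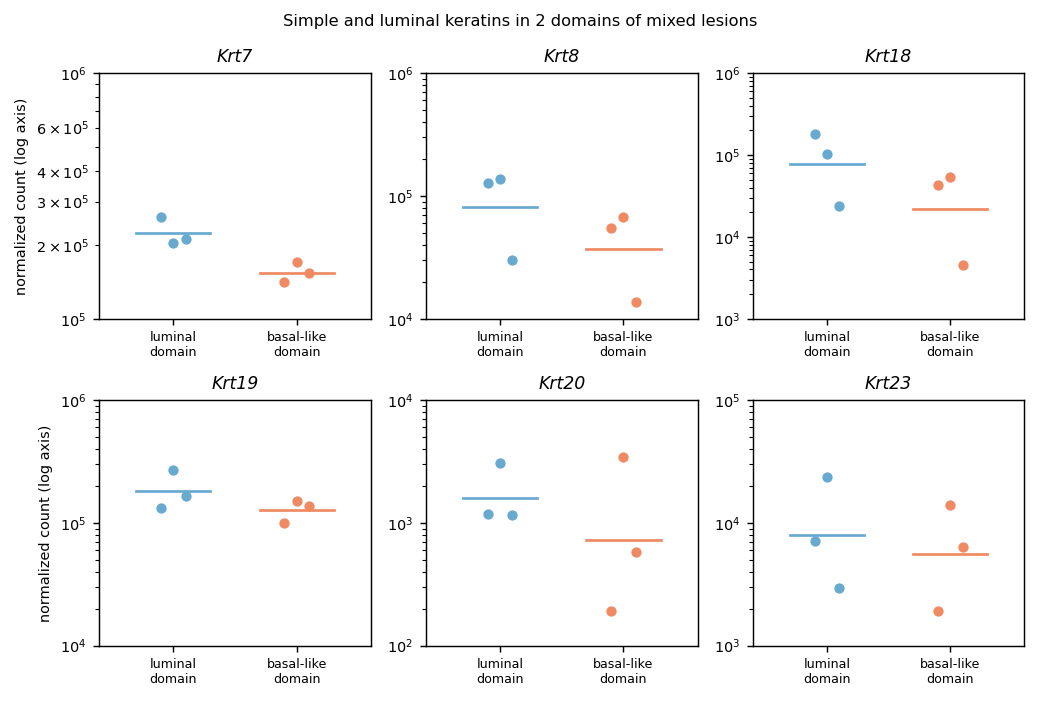
Normalized counts (log axis) of the 6 keratins in 3 luminal and 3 basal-like domains of mixed lesions, each point a library in numbered order and each line the mean on the log2 scale. Only Krt7 shows groups that do not overlap, with 140490 to 170094 in the basal-like and 202982 to 258530 in the luminal domains.

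Between the domains, 10 of 11 basal and squamous keratins had values above 0 (median 0.46) and all 12 superficial differentiation genes had values below 0 (median -0.97), with none past the test in either list. The 6 simple keratins made up 57.8%, 67.1% and 36.2% of keratin normalized counts in luminal domains 1 to 3, and 45.6%, 37.3% and 21.4% in basal-like domains 1 to 3. The shares overlapped between the kinds, and in 3 of 3 pairs the basal-like domain had the lower share. Even the lowest share in a basal-like domain, 21.4%, exceeded the highest share found in the basal tumors, 19.6%, although these come from tables that were normalized separately. Fibroblast markers summed to 5225 to 32313 in the luminal and 13859 to 104068 in the basal-like domains (6 of 6 above 0, none past the test). Smooth muscle markers (4 of 4 tested above 0, with Cnn1 at 0 in the luminal domains) summed to 1440 to 1921 and 1929 to 7195. These ranges nearly touch, and none of the 4 tested genes separated the domains by itself. Leukocyte markers (5 of 8 tested above 0, median 1.16, with Cd79a at 0 in both) summed to 2328 to 4192 and 2272 to 5425. Their part in the keratin values was not tested.

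**Figure D4:**
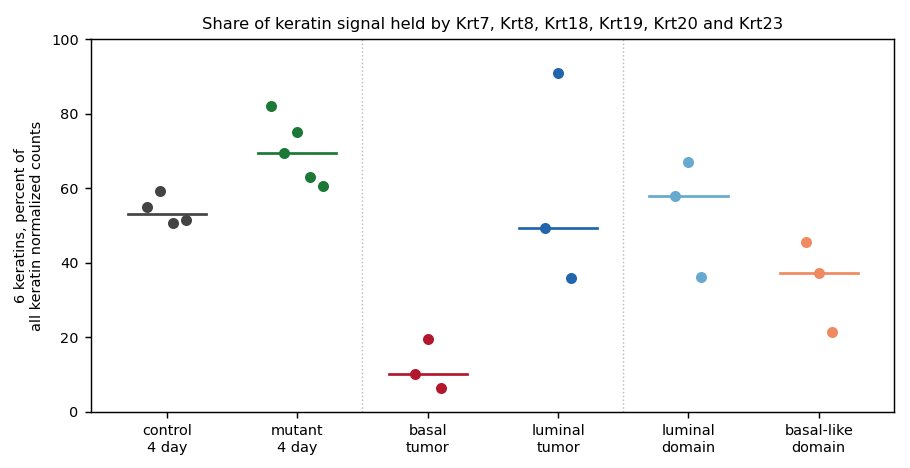
Normalized counts of Krt7, Krt8, Krt18, Krt19, Krt20 and Krt23 as a percent of those of all 54 keratin genes, each point a library and each line the group median, with dotted lines between tables that were normalized separately. Shares run from 50.6% to 59.2% in control cells, 60.6% to 82.1% in mutant cells, 6.42% to 19.6% in basal tumors and 35.9% to 90.9% in luminal tumors.

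Luminal domains were also set against luminal tumors, within the table of 8 libraries that holds 2 domains and 3 tumors. No gene of 16640 was called with limma (0%), 761 (4.57%) had an unadjusted p under 0.05, and 7 were called without the variance trend. Krt7, at 238427 and 182452 in the domains and 104489 to 162741 in the tumors, was the one keratin with separate groups, as 10.7% of genes were in this direction (log2 fold change 0.75 ± 0.66). The interval of that difference, -0.73 to 2.23, covers both a modest fall and a several-fold rise. Markers of other cells mostly had log2 fold changes above 0 as well, none past the test. Fibroblast markers (6 of 6 above 0) summed to 212 to 17130 in the tumors and to 5086 and 29242 in the domains, and endothelial markers (5 of 5 above 0) to 374 to 1831 and to 1606 and 3582. Smooth muscle markers (5 of 6 above 0, with Des at 0 in the tumors and Cnn1 at 0 in the domains) summed to 150 to 1254 and to 1300 and 1777, and leukocyte markers (8 of 9 tested above 0, with Cd79a at 0 in the domains) to 579 to 2096 and to 1982 and 3438. Their part in the keratin values was not tested.

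For Krt8 the domains held 117577 and 124023, inside the tumor range, and the difference was 0.37 (interval -0.64 to 1.38). The differences of the remaining 4 were 0.72 for Krt18, 0.11 for Krt19, -0.16 for Krt20 and 0.93 for Krt23, with adjusted p of 0.998 to 1. Leaving out 1 library took Krt8 to 0.13 (without luminal tumor library 3), Krt18 to 0.026 (without luminal tumor library 1) and Krt23 to 0.079 (without luminal domain library 2). The highest values over such fits were 0.76 for Krt8, 1.63 for Krt18 and 1.78 for Krt23. Intervals as wide as -3.78 to 3.46 for Krt20 show that these 5 libraries do not fix the difference.

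**Figure D5:**
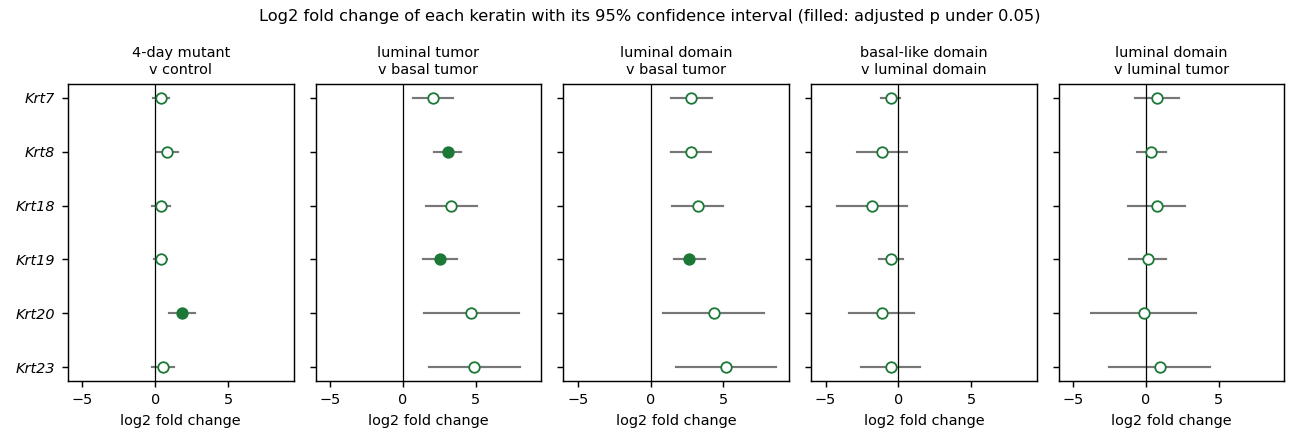
Log2 fold change of each keratin in the 5 comparisons, with circles for the estimate, lines for the 95% confidence interval and filled circles for adjusted p under 0.05 in limma. Krt20 is filled in the sorted cells, Krt8 and Krt19 in luminal against basal tumors, and Krt19 in luminal domains against basal tumors.

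The levels of the 6 genes against each other were read per kilobase of coding sequence, since the single GENCODE transcript used for Krt7 is long (4.094 kb, of which 1.371 kb is coding) and the transcripts behind the deposited values are not stated. On that scale the order in the controls was Krt7 (116350 ± 14242 normalized counts per coding kb, SD, n = 4), Krt19 (71210 ± 10425), Krt18 (44589 ± 7686), Krt8 (25102 ± 5214), Krt23 (642 ± 58.1) and Krt20 (625 ± 289). No neighbours among the first 5 overlapped, and Krt23 and Krt20 did. In the mutants Krt20 (2282 ± 1110, n = 5) stood above Krt23 (1022 ± 508) in 5 of 5 libraries, although their ranges overlapped. Per kilobase of whole transcript Krt7 stood lower in the controls at 38963 ± 4769, behind Krt19 (54628 ± 7997) and level with Krt18 (39376 ± 6787).

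In the tumors Krt23 stood above Krt20, in 3 of 3 luminal tumors at 6605 and 2060 normalized counts per coding kb on average, and in 3 of 3 basal tumors at 534 and 149. In luminal tumors Krt19 had the highest mean at 141021 per coding kb. The means of Krt18, Krt7 and Krt8 were 93265, 92327 and 68622, with overlapping ranges. Krt19 was above Krt18 in 2 of 3 of these tumors, and Krt18 above Krt7 in 1 of 3. In luminal tumor library 2 Krt19 (78443 per coding kb) lay below Krt18 (211729), Krt7 (118702) and Krt8 (108518). Krt7 was above Krt8 in 3 of 3 luminal tumors on this scale, whereas per kilobase of whole transcript Krt8 (51519) was above Krt7 (30918) in 3 of 3. In the basal-like domains Krt7 (112811) and Krt19 (106626) lay above Krt8 (30975) and Krt18 (26642), and the ranges of Krt19 and Krt8 did not overlap. Per kilobase of whole transcript Krt19 (81796) stood above Krt7 (37778) in 3 of 3 of these domains. Sums over the type II members were 0.571 to 0.737 of the sums over the type I members, per coding kb, in luminal tumors, and 0.693 to 1.51 in the basal tumors. Per kilobase of whole transcript the ratios were 0.370 to 0.464 and 0.374 to 0.965, so that type II exceeded type I in 2 of 3 basal tumors on the coding scale and in none on the transcript scale.

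The genes most like each keratin were listed by the lower of its Pearson correlations over the 9 sorted libraries and over the 8 libraries of the tumor table, among 13227 genes. These libraries include the contrasted groups, so the group differences enter each r, and no test was made. Krt7 was nearest to Rab15, Ei24 and the uroplakin Upk1b (r = 0.934 and 0.959 for Upk1b). Krt8 was nearest to Las1l, Chp1 and Gcnt3, a mucin glycosyltransferase (0.954 and 0.939). Krt18 was nearest to Spint1, an epithelial protease inhibitor (0.922 and 0.917), Ei24 and Lpin3.

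Krt19 was nearest to Akr1b8, Cib1 and Taldo1, and Krt20 to Chmp6, Blcap and Pinlyp. Krt23 was nearest to Sprr1a, a small proline-rich protein of the cornified envelope (0.940 and 0.925), Rtf2 and Gss. Among the 6 themselves, Krt7 and Krt19 were the closest pair in sorted cells (r = 0.975) and Krt20 and Krt23 in the tumor table (r = 0.965), while Krt20 and Krt23 were the most distant pair in sorted cells (r = 0.716).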

How the data were processed

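The authors quantified SMART-Seq v4 and Nextera XT libraries with kallisto 0.44.0, summed transcripts to genes with tximport and normalized each table alone with DESeq2 1.18. The deposited signal values used here are those normalized counts, scaled by the authors with a separate factor for each gene and library. Whole reads were not recoverable, and no counting interval is given. The study's methods state a targeted depth, but the depth in reads that each library reached is unknown. Build and transcript index are not given for these tables in the sources used here (GRCm38 and GRCh38 are named without a role). The authors' tables of fold changes and p-values were not used. A table of 8 columns for untreated mice and mice with 1 month of BBN was not analysed here, because the labels do not say which columns belong to which condition. Samples were grouped by their labels, and columns carry a group but no replicate number. Luminal and basal-like domains were paired by adjacent library numbers in the column names, a pairing that the labels do not state. Over 14874 genes the deviations of paired libraries from their group means correlated at 0.330 to 0.363, and those of other combinations at -0.205 to -0.114. Deviations cancel out within a group, so positive values for the pairs bring negative values for the other combinations by construction.

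A gene was tested if it reached 10 normalized counts in a number of libraries equal to the smaller group's size. Tests were run on log2(normalized count + 1), which understates changes of low genes, with limma 3.58.1 (lmFit, eBayes with a trend) in R 4.3.3, and p was adjusted by Benjamini-Hochberg at 0.05. The tumor table was fitted with 3 groups. In the text, called means past that threshold. Named genes are the 6 keratins, genes of the lists past the test (at most 4 per list and comparison, by adjusted p), the 3 genes nearest each keratin, and pseudogene rows of a keratin. The keratins and lists were chosen with earlier results of these data known. Levels were divided by lengths of GENCODE M21, and promoters are from RefSeq. Figures were drawn with matplotlib 3.10.9. Alternatives were other pseudocounts, filters, variance models, weights and scalings, other sets of libraries, and fits without 1 library.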

Additional observations from a re-analysis of the deposited data

Results flagged for a closer look

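Values of the 6 keratins, their shares and their ratios in the 2 groups of sorted cells were tested for a sample apart by Dixon's criterion, which chance exceeds in about 1 of 20 groups, and 2 of 24 values were marked. Krt8 in mutant library 1, at 141541 normalized counts, stood apart from the other 4 mutants (39566 to 66983), with a gap to its neighbour of 0.731 of the range where 0.71 is the limit. Without that library the log2 fold change of Krt8 was 0.55 in place of 0.84. The log2 ratio of Krt8 to Krt18 in control library 1, at -0.71, stood apart from the other 3 controls (-1.20 to -1.19), with a gap of 0.972 of the range where 0.829 is the limit. That control is also the one whose Y-linked transcripts summed to 404 beside 9030 to 9177 in the others.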

How the results depend on the processing

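Between the domains a replicate block by adjacent library number, chosen after seeing the data, called 1 gene where 0 were called, and 0 keratins. No paired analysis was possible for the other comparisons, because neither replicate numbers nor adjacent library numbers link their columns. The log2 fold changes of the 6 keratins kept their sign under every alternative in the 3 comparisons of sorted cells and of basal tumors. In the sorted cells 467 genes were called and 1 keratin, Krt20. Without the variance trend 269 genes and 0 keratins were called, with array weights 1054 and 0, with the authors' table of 3 against 3 libraries 147 and 0, and with a Y-linked term 26 and 0. Fits without 1 library called 129 to 596 genes and 0 to 1 keratins. For luminal against basal tumors 338 genes and 2 keratins were called. No filter gave 52 and 1, no trend 142 and 0, the 3 basal and 3 luminal tumors alone 142 and 1, and the 5 luminal libraries as 1 group 513 and 5. Quantile and upper-quartile scaling each called 1 keratin, and fits without 1 library 3 to 813 genes and 0 to 2 keratins. Luminal domains against basal tumors gave 377 genes and 1 keratin, 144 and 1 without a filter, 107 and 0 without a trend, and 53 and 1 with the 2 domains of the larger table, where Krt8 was called (adjusted p = 0.0284) and Krt19 was not (adjusted p = 0.0982). Array weights or a filter of 50 normalized counts called 2 keratins, and fits without 1 library 0 to 467 genes and 0 to 2 keratins. The domain comparisons went from 0 genes to 20 and 7 without a trend, and fits without 1 library called 0 to 1 gene for luminal domains against luminal tumors. Signs turned in that comparison for Krt20 (-0.83 to 0.62 over fits without 1 library) without luminal domain library 1 (0.51) or luminal tumor library 2 (0.62) and for Krt19 (-0.38 to 0.60) without luminal tumor library 2 (-0.26) or luminal domain library 2 (-0.38), and between the domains for Krt23 (-1.22 to 0.28) without luminal domain library 2 (0.28) or basal-like domain library 1 (0.25). Fewer libraries in a fit leave fewer degrees of freedom, and for the other settings the cause was not tested. Groups of 2 to 5 libraries and the unknown depth reached by each library limit every call.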
